A study of Mus musculus with 23 samples.

Results

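The 36 genes described here are markers of fibroblasts and of the mesenchymal state, taken from the 54354 genes of the count table by symbol. All 36 were found, and they fall into 30 fibroblast identity genes and 6 mesenchymal genes. The identity genes comprise 12 collagen chains, 5 proteoglycans and fibril-binding proteins, 4 matrix enzymes and their helpers, 6 other secreted proteins and 3 cell surface proteins. The mesenchymal genes are Vim and the transcription factors Zeb1, Zeb2, Twist1, Prrx1 and Snai2. The choice used gene names and not measured levels, although it was made with earlier results of these data known.

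RNA from sorted cells of mouse colon tumours was sequenced in bulk. The groups were 11 GFP-positive and 12 GFP-negative libraries. Both share 1 genotype, labelled Basp1-GFP: AKP-tdT organoids carrying Basp1-eGFP-DTR, where eGFP is a green fluorescent protein, had been implanted in the colon. The text names a sort by GFP and no gate on the tdT marker, so whether host cells were kept out is not stated. Strain, age, sex and diet are not given for a library, although the title of the series carries HFD. The labels name organoids as the RNA source in one place and digested primary tumours in another. Identifiers, taken from the start of the library names, joined a GFP-positive to a GFP-negative library in 10 of 11 cases. In 1 of the 10 the names were not the same. GFP-negative 4 and GFP-negative 5 start with different numbers, and were given 1 identifier because the name of GFP-positive 4 carries both. Whether an identifier is 1 animal is not stated. Library numbers fell into 2 runs, called set 1 (5 GFP-positive and 6 GFP-negative libraries) and set 2 (6 and 6).

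Fibroblasts secrete the fibrillar collagens, which assemble into the fibres of connective tissue, and the small leucine-rich proteoglycans that bind those fibres and set their spacing. In carcinomas these genes are used as marks of cancer-associated fibroblasts in the stroma. Epithelial tumour cells can also take on mesenchymal features, when factors of the ZEB, SNAI and TWIST families repress epithelial genes and the intermediate filament vimentin is made, but Vim and Zeb2 are also made by macrophages and other stromal cells, so neither marks a tumour cell by itself.

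Depth was low and uneven. Total counts ran from 37125 to 4238877 in GFP-positive libraries (median 1418140) and from 25458 to 2304316 in GFP-negative libraries (median 144334.5), and 1 GFP-positive and 3 GFP-negative libraries held under 100000. Levels are given as CPM, the count divided by the library total on the usual scale. A count of 0 allows up to 118 CPM in the shallowest GFP-negative library and up to 0.708 CPM in the deepest GFP-positive one, counting error only. Basp1 itself had a log2 fold change of 0.63 ± 0.38 (SE; adjusted p = 0.997) between the populations. GFP-positive 3 stood apart in its macrophage markers, whose 14 genes summed to 36754 CPM there, against 195 to 1437 CPM in the other GFP-positive libraries.

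To set the members' start sites beside their levels, RefSeq promoter windows (GRCm38.p6, 250 bases before to 50 after the start, 5′ to 3′ on the gene's strand) were read for 21 of the 36 genes. The windows below belong to 2 collagen genes whose levels were lower in GFP-positive cells of set 2, Col1a2 (chr6:4505368-4505667, plus strand) and Col15a1 (chr4:47207762-47208061, plus strand), and to 2 mesenchymal genes that passed no test, Vim (chr2:13574061-13574360, plus strand) and Twist1 (chr12:33957421-33957720, plus strand). Capitals mark CCAAT and TATAAA on either strand.
Col1a2: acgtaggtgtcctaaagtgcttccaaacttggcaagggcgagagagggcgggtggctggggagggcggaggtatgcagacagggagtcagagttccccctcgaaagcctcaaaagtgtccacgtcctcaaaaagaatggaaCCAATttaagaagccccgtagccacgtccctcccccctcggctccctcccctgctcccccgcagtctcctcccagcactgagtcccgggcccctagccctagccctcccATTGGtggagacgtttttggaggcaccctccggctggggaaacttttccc
Col15a1: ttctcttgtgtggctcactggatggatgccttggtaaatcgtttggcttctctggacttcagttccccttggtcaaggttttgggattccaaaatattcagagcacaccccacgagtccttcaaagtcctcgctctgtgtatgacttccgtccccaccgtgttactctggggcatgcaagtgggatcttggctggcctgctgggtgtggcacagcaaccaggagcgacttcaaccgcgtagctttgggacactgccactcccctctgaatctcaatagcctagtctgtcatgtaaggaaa
Vim: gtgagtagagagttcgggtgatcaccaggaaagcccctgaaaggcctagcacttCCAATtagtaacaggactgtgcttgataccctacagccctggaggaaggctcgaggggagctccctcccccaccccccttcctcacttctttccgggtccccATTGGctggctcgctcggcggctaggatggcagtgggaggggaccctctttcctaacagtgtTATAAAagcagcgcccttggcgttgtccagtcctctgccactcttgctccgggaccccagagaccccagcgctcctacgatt
Twist1: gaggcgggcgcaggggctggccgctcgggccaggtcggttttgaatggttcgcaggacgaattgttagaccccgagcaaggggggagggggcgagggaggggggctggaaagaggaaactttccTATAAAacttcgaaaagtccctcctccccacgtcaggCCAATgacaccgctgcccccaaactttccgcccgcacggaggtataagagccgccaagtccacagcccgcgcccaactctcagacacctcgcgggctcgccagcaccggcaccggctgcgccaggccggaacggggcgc
The letters CCAAT, on either strand, were in 5 of the 21 genes (Col1a2, Serpinf1, Twist1, Vim and Zeb2), beside 37.4% of all 32851 windows. TATAAA was in 5 (Col3a1, Dpt, Ogn, Twist1 and Vim), beside 13.6% of windows. CACCTG, the E-box letters bound by ZEB and SNAI factors, was in 3 (Col8a1, Dpt and Pcolce), beside 20.2% of windows. A match is a description of letters and not a binding site.

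Transcripts of the identity genes were a small share of every library, and the populations overlapped over the whole series. The 30 identity genes summed to 671, 1377 and 4128 CPM (lowest, median and highest) in GFP-positive libraries, against 450, 3691 and 16122 CPM in GFP-negative libraries. The ratio of the medians was 0.373. Mgp alone gave a median of 56.4% of the identity counts in GFP-positive libraries, so the sum leans on 1 gene there and need not follow fibroblast content. For the 5 fibrillar collagens the ratio of medians was 0.098. In set 2 the sums of the 6 GFP-positive libraries ran from 798 to 2229 CPM and those of the 6 GFP-negative libraries from 2860 to 16122 CPM, with no overlap. In set 1 they were 4128, 1497, 671, 1212 and 681 CPM in GFP-positive libraries, against 450 to 4684 CPM in GFP-negative libraries (median 813), and overlapped throughout. No test was run on these sums. In bulk libraries, fewer fibroblasts and less RNA per fibroblast cannot be told apart.

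**Figure D1:**
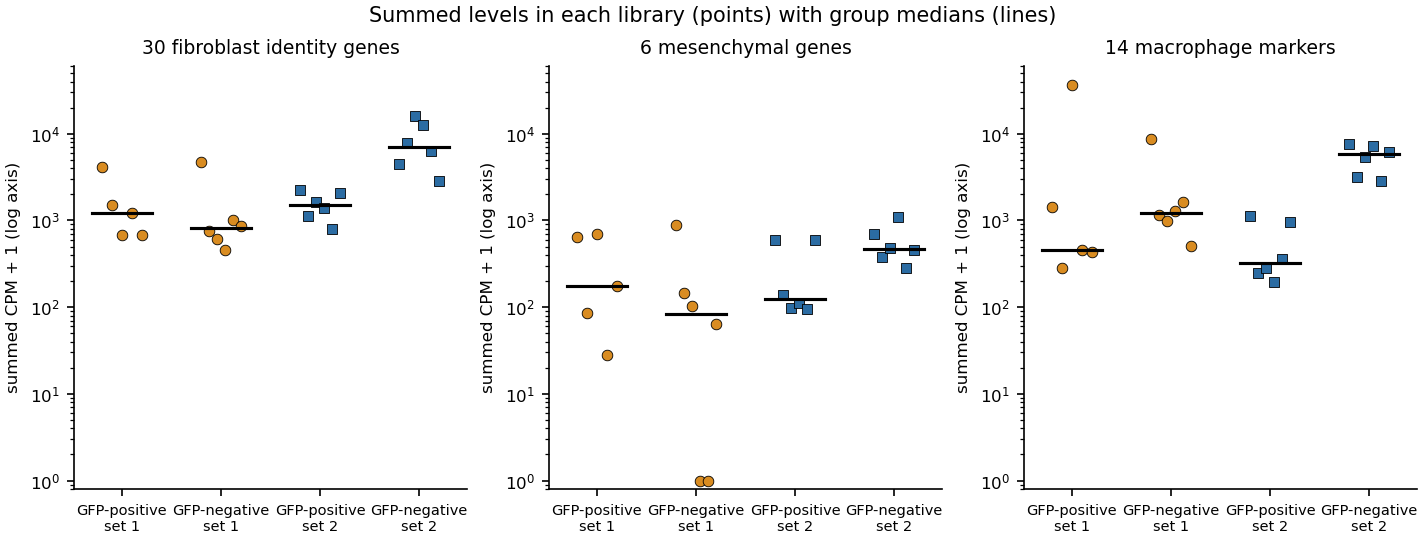
Summed CPM of the 30 identity genes, the 6 mesenchymal genes and 14 macrophage markers (log axis, after adding 1), by population and library set. Each point is a library and each line a group median. In set 2 the identity sums of GFP-positive libraries (798 to 2229 CPM) lie below those of GFP-negative libraries (2860 to 16122 CPM), while the mesenchymal sums overlap.

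Across all libraries, no member passed the threshold, an adjusted p under 0.05 in edgeR's quasi-likelihood test with Benjamini-Hochberg adjustment over 6621 genes. Of those genes 1 was called (0.0151%). A filter on low counts left 13 of the 36 members, all with negative log2 fold changes (GFP-positive minus GFP-negative) and a median of -2.04, beside 0.07 for all genes tested. At an unadjusted p under 0.05 stood 8 of the 13, beside 4.95% of all genes; DESeq2 called 6 members lower, beside 0.592% of the genes it tested. The filter can keep a gene through 1 population alone, so the median of those kept does not describe all 36.

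Col1a1, the alpha-1 chain of type I collagen (mm10 chr11:94936224-94953042), had 0, 33.1 and 363 CPM (lowest, median and highest) in GFP-positive libraries, against 0, 397 and 2194 CPM in GFP-negative libraries. Its log2 fold change was -2.89 ± 0.84 (SE; adjusted p = 0.730). Col1a2, the partner alpha-2 chain, had 0, 41.8 and 512 CPM in GFP-positive libraries and 17.3, 357 and 2429 CPM in GFP-negative libraries (-2.63 ± 0.80, adjusted p = 0.730). The groups overlapped for every one of the 36 members (0% of genes stood apart). The other 11 members tested ran from -2.54 for Bgn to -0.29 for Pcolce, whose product enhances the removal of the procollagen C-propeptide.

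Within library set 2, 12 members were lower in GFP-positive cells. Of 6952 genes, 89 were called (1.28%), with 86 lower (1.24%) and 3 higher (0.0432%). Of the 24 members that passed the filter, 12 were called lower and none higher; all 12 were identity genes. The median log2 fold change of these 24 was -2.93, beside 0.07 for all genes, and 17 stood at an unadjusted p under 0.05, beside 6.88%. Here too the filter can keep a gene through 1 population alone, so these values do not describe all 36. Without the filter, where all 36 members were tested, 12 were again called lower, beside 1.55% of 14614 genes. DESeq2 called 15 members lower, beside 2.46% of genes. In the fit without the filter, Thy1 (-3.07, adjusted p = 0.00553) and Loxl1 (-2.96, adjusted p = 0.0312) were called, and Col8a1 (adjusted p = 0.0546) and Col5a2 (adjusted p = 0.0732) were not. CPM ranges of the populations did not overlap for 9 members, all lower in GFP-positive libraries, beside 0.486% of genes; no member was higher without overlap, beside 0.267%.

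Of the 5 interstitial fibrillar collagens, 4 were called lower by edgeR. In set 2, Col1a1 had 12.8, 63.0 and 137 CPM in GFP-positive libraries, against 388, 730 and 2194 CPM in GFP-negative libraries. The lowest GFP-negative library stood above the highest GFP-positive one (-3.90 ± 0.64, adjusted p = 0.0118). Col1a2 had 31.9, 93.6 and 145 CPM in GFP-positive libraries and 201, 820 and 2429 CPM in GFP-negative libraries, again without overlap (-3.71 ± 0.58, adjusted p = 0.00782). Type V collagen nucleates and limits the type I fibril. Its Col5a1 chain had 1.18, 3.39 and 16.9 CPM in GFP-positive libraries, against 22.04, 93.9 and 163 CPM in GFP-negative libraries, with no overlap (-3.70 ± 0.60, adjusted p = 0.00075). Its Col5a2 chain had 4.79, 26.5 and 79.9 CPM in GFP-positive libraries and 71.9, 188 and 551 CPM in GFP-negative libraries (-3.00 ± 0.66, adjusted p = 0.0494). The Col5a2 ranges overlapped slightly, and its call was lost when GFP-positive 8, 9 or 10 or GFP-negative 7, 8, 9 or 10 was left out (adjusted p 0.0681 to 0.130). Col3a1, the type III chain of young and elastic connective tissue, had a negative fold change but did not pass. DESeq2 called it lower (-2.89, adjusted p = 0.00369). It had 22.3, 70.6 and 381 CPM in GFP-positive libraries, against 216, 886 and 1953 CPM in GFP-negative libraries (-2.86 ± 0.79, adjusted p = 0.208); GFP-positive 6 and 11, at 381 and 319 CPM, reached into the GFP-negative range.

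The 4 other collagens, of varied function, were all called. Col15a1, a chain of the zone next to basement membranes and the member of smallest p, had 0, 2.35 and 6.996 CPM in GFP-positive libraries, against 19.6, 61.6 and 146 CPM in GFP-negative libraries (-4.52 ± 0.62, adjusted p = 0.000216). Col12a1 and Col14a1 encode fibril-associated collagens. Col12a1 had 0, 2.13 and 19.0 CPM in GFP-positive libraries and 0, 77.2 and 215 CPM in GFP-negative libraries (-4.02 ± 0.79, adjusted p = 0.0103); the 0 was GFP-negative 12, a library where a count of 0 allows up to 43.1 CPM. Col14a1 had 0, 5.76 and 12.8 CPM in GFP-positive libraries, against 18.6, 50.3 and 88.1 CPM in GFP-negative libraries, with no overlap (-3.13 ± 0.63, adjusted p = 0.00709); without GFP-negative 9 the call was lost (adjusted p = 0.0614). Col8a1, a short-chain network collagen of vessel and wound matrix, had 3.19, 31.4 and 46.6 CPM in GFP-positive libraries and 46.7, 322 and 620 CPM in GFP-negative libraries. Its ranges only just failed to meet (-3.63 ± 0.75, adjusted p = 0.0388), and the call was lost without any 1 of GFP-positive 6, 8, 9, 10 and 11 and GFP-negative 8, 9, 10 and 11 (adjusted p 0.0540 to 0.110).

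Type VI collagen, which forms beaded filaments around cells from 3 different chains, was uneven. Col6a3 had 0, 6.21 and 18.4 CPM in GFP-positive libraries, against 59.1, 109 and 224 CPM in GFP-negative libraries, and its ranges stood apart (-4.15 ± 0.59, adjusted p = 0.000368). Col6a1 (-1.94 ± 0.97, adjusted p = 0.813) and Col6a2 (-1.57 ± 0.91, adjusted p = 0.842) did not pass. GFP-positive 6 held 126 CPM of each and GFP-positive 11 held 121 and 55.0 CPM, while the other 4 GFP-positive libraries held at most 14.9 and 9.73 CPM. The difference between chains was not tested.

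**Figure D2:**
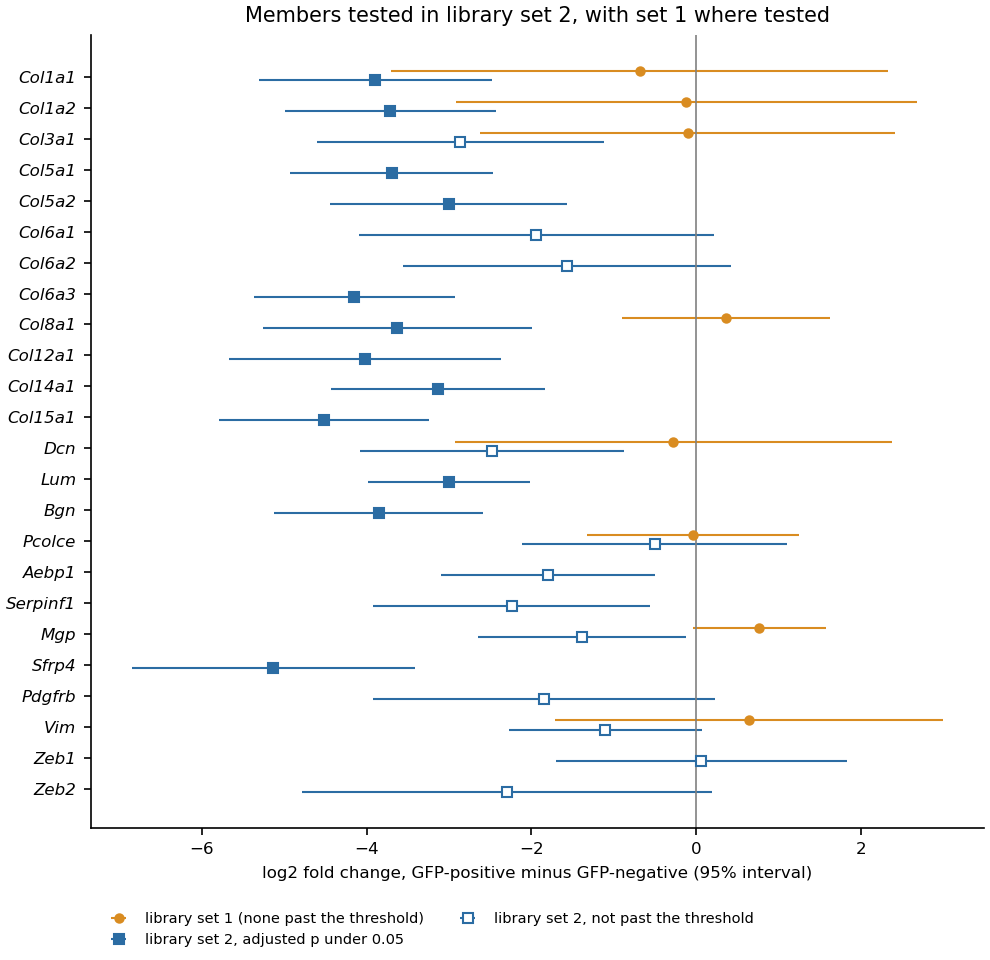
Log2 fold changes (GFP-positive minus GFP-negative) with 95% intervals for the 24 members tested in set 2, and for the 8 of them tested in set 1. Filled squares passed the threshold in set 2, open squares did not, and circles are set 1, where none passed. All 12 called members lie between -5.13 and -3.00, and Zeb1 lies at 0.06.

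Among the proteoglycans, edgeR called Bgn and Lum and did not call Dcn. Bgn encodes biglycan, which binds collagen and growth factors. It had 15.3, 34.8 and 74.0 CPM in GFP-positive libraries, against 144, 478 and 1162 CPM in GFP-negative libraries, with no overlap (-3.85 ± 0.58, adjusted p = 0.00490). Lum (lumican, a regulator of fibril diameter) had 6.38, 23.7 and 36.7 CPM in GFP-positive libraries and 28.7, 138 and 414 CPM in GFP-negative libraries (-3.00 ± 0.47, adjusted p = 0.000982); only GFP-negative 12 fell inside the GFP-positive range. Dcn, whose product decorin coats collagen fibrils, had 32.6, 146 and 282 CPM in GFP-positive libraries and 225, 739 and 1966 CPM in GFP-negative libraries (-2.48 ± 0.73, adjusted p = 0.264). DESeq2 called Dcn lower (adjusted p = 0.0109). Ogn and Dpt, also matrix proteins, were too sparse to be kept by the filter, and the fit without it gave -1.05 ± 0.88 (adjusted p = 0.771) and -1.44 ± 0.73 (adjusted p = 0.484).

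Of the secreted proteins, Sfrp4 had the lowest fold change of any member. This secreted antagonist of WNT ligands had 0, 1.68 and 9.22 CPM in GFP-positive libraries, against 21.2, 99.0 and 265 CPM in GFP-negative libraries (-5.13 ± 0.81, adjusted p = 0.00274). The ranges did not overlap, although the GFP-positive values rest on 40 counts. Serpinf1, which encodes an anti-angiogenic serpin, did not pass (-2.236 ± 0.78, adjusted p = 0.398), nor did Aebp1 of the matrix enzyme group, a collagen-binding carboxypeptidase-like protein (-1.80 ± 0.62, adjusted p = 0.342). Aebp1 had 3.19 to 89.2 CPM in GFP-positive libraries and 39.2 to 149 CPM in GFP-negative libraries. With libraries blocked by identifier, edgeR called Aebp1 lower (-2.16, adjusted p = 0.00528), as it did without GFP-positive 6 (-2.40, adjusted p = 0.0167). The WNT modulator Sfrp2, the chemokine Cxcl12 and the collagen-repeat protein Cthrc1 were not kept by the filter and reached at most 6.15, 17.4 and 18.4 CPM in the GFP-positive libraries of set 2, against 17.2, 39.2 and 103 CPM in the GFP-negative ones.

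Mgp and Pcolce were not called in either set by the main edgeR fit. With libraries blocked by identifier, edgeR called Mgp lower in set 2 (-1.01, adjusted p = 0.00652). Mgp encodes matrix Gla protein, an inhibitor of calcification. In set 2 it had 366, 647 and 912 CPM in GFP-positive libraries, against 374, 1288 and 3324 CPM in GFP-negative libraries, which overlapped (-1.38 ± 0.57, adjusted p = 0.639). In set 1 it had 770, 1258, 248, 1104 and 384 CPM in GFP-positive libraries and 208, 340 and 723 CPM in GFP-negative libraries (0.77 ± 0.38, adjusted p = 0.903). Pcolce had 10.004, 75.6 and 351 CPM in GFP-positive libraries and 78.9, 150 and 316 CPM in GFP-negative libraries of set 2 (-0.50 ± 0.73, adjusted p = 0.943).

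The make-up of the identity counts is given as shares, without a test. Mgp gave a median of 56.4% of all identity counts in GFP-positive libraries (16.4% to 91.1%), against 27.6% in GFP-negative libraries (10.7% to 61.4%). In set 2 the median was 54.9% in GFP-positive and 13.6% in GFP-negative libraries. The 5 fibrillar collagens gave a median of 19.8% in the GFP-positive libraries of set 2 (6.601% to 32.7%) and 44.3% in the GFP-negative ones (26.5% to 50.7%). These ranges overlapped. GFP-positive 6 and 11 held 16.4% and 18.3% Mgp, inside the GFP-negative range of set 2, and the shares of GFP-positive 4 rest on 45 identity counts.

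**Figure D3:**
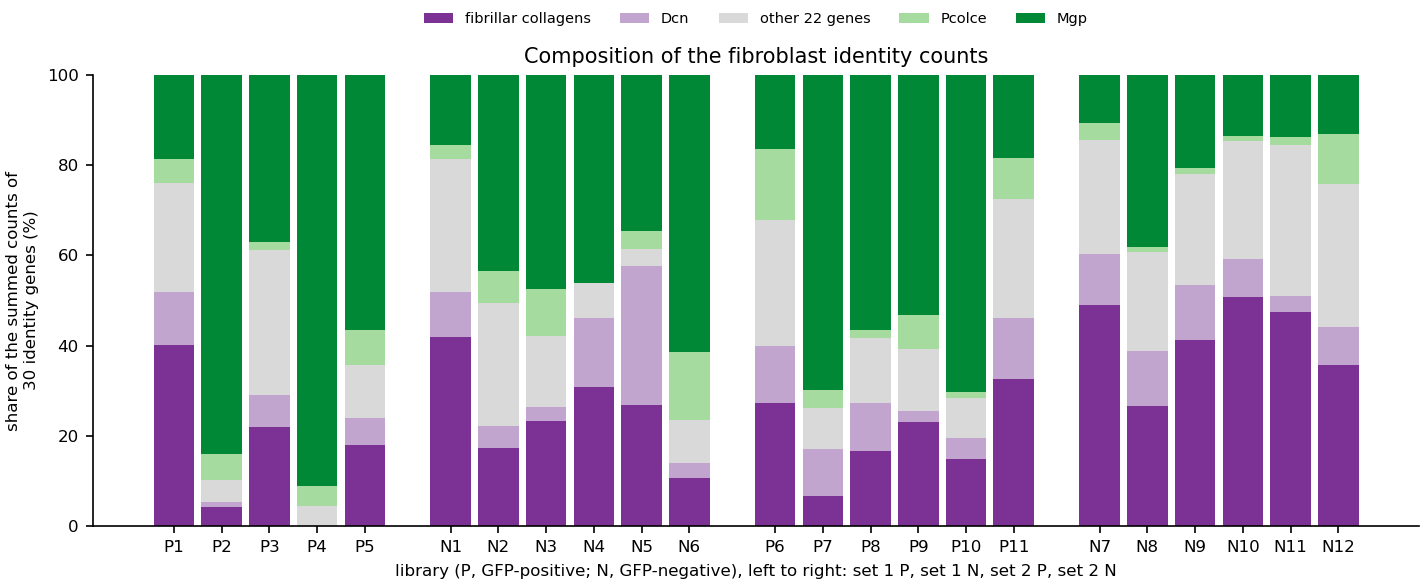
Share of the summed identity counts (percent) taken by the 5 fibrillar collagens, Dcn, Pcolce, Mgp and the other 22 genes in each library (P, GFP-positive; N, GFP-negative). In set 2 the Mgp share has a median of 54.9% in GFP-positive and 13.6% in GFP-negative libraries.

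Set per kilobase of merged exon, Mgp had the highest median of the 36 members in both populations, at 617 CPM per kb in GFP-positive and 429 CPM per kb in GFP-negative libraries. Vim came next, at 28.9 CPM per kb in GFP-positive and 63.0 CPM per kb in GFP-negative libraries. Col1a1 was eighth among GFP-positive libraries, at 5.04 CPM per kb, and the third among GFP-negative ones, at 60.5 CPM per kb. In GFP-positive libraries the span of Mgp (209 to 1060 CPM per kb) lay above that of Vim (0 to 108 CPM per kb), while in GFP-negative libraries the spans of Mgp (175 to 2801 CPM per kb) and Vim (0 to 185 CPM per kb) overlapped.

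The surface proteins of fibroblasts were sparse. Pdgfra and Pdgfrb, the receptors for platelet-derived growth factors, had medians of 2.88 and 3.62 CPM in the GFP-positive libraries of set 2, against 15.6 and 41.4 CPM in the GFP-negative ones. Pdgfra was not kept by the filter, and the fit without it gave -2.04 ± 0.84 (adjusted p = 0.316). Pdgfrb, a mark of pericytes as well as fibroblasts, was the single surface protein that passed the filter in set 2 (-1.85 ± 0.98, adjusted p = 0.819). Thy1, a GPI-anchored antigen, had 0 to 7.05 CPM in the GFP-positive libraries of set 2 and 0 to 75.6 CPM in the GFP-negative ones. It was called lower in the fit without the filter, and by DESeq2 (adjusted p = 0.00257). Of the matrix enzymes, Fap, a serine protease of activated fibroblasts, reached at most 3.53 CPM in the GFP-positive libraries of set 2 and 31.1 CPM in the GFP-negative ones (-2.61 ± 1.09 without the filter, adjusted p = 0.330).

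None of the 3 mesenchymal genes that passed the filter in set 2 was called, and of all 6 in the fit without the filter none was called, with 4 negative fold changes. Vim had 74.6, 114 and 480 CPM in the GFP-positive libraries of set 2, against 265, 406 and 878 CPM in the GFP-negative ones (-1.10 ± 0.54, adjusted p = 0.788). The 2 high GFP-positive libraries were 6 and 11, at 480 and 472 CPM, and these overlapped the GFP-negative range. Over all libraries Vim had a log2 fold change of -0.45 ± 0.60 (adjusted p = 0.997), from 0, 137 and 511 CPM in GFP-positive and 0, 299 and 878 CPM in GFP-negative libraries. Zeb2 had 0, 0.935 and 43.0 CPM in the GFP-positive libraries of set 2, against 9.80, 32.2 and 181 CPM in the GFP-negative ones (-2.29 ± 1.14, adjusted p = 0.798), and GFP-positive 6 and 11 again reached into the GFP-negative range.

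Zeb1, a repressor of epithelial genes, had a fold change near 0 in set 2, with a wide interval. It had 0, 11.2 and 41.6 CPM in GFP-positive libraries and 0, 11.8 and 24.9 CPM in GFP-negative libraries (0.06 ± 0.85, 95% interval -1.71 to 1.83, adjusted p = 0.996). Over the series it was detected in 10 of 11 GFP-positive libraries and in 6 of 12 GFP-negative ones. At the depth of those 6 undetected libraries a count of 0 allows 19.1 to 118 CPM. The GFP-positive median of 17.5 CPM lies under that limit in each of them, so a single 0 does not exclude it. Such a level could still have been detected there, and the 6 libraries were not tested together. Twist1, a basic helix-loop-helix factor, was not kept by the filter. It had 1.18, 7.89 and 36.9 CPM in the GFP-positive libraries of set 2, against 0, 2.94 and 15.6 CPM in the GFP-negative ones, and the fit without the filter gave 1.20 ± 0.86 (adjusted p = 0.708). Prrx1, a homeobox factor of limb and stromal mesenchyme, had a median of 0.717 CPM in the GFP-positive libraries of set 2 and 8.59 CPM in the GFP-negative ones, and the fit without the filter gave -2.67 ± 1.00 (adjusted p = 0.240). Snai2, a zinc finger repressor of the SNAI family, rests on 7 counts in GFP-positive and 9 in GFP-negative libraries over the whole series. The fit of set 2 without the filter used only part of these counts (-2.25 ± 1.22, adjusted p = 0.530).

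The GFP-positive libraries of identifiers 3034, 5780 and 7968 (1, 6 and 11) held the 3 highest Twist1 levels of that population, at 32.3, 36.9 and 34.6 CPM, against at most 13.99 CPM in the other 8. They also held the highest Zeb1, at 44.1, 30.7 and 41.6 CPM. Vim stood at 511, 480 and 472 CPM in them and at 398 CPM in GFP-positive 3, against 0 to 156 CPM in the other 7. The identity sums of the same 3 libraries were the highest of their population, at 4128, 2229 and 2083 CPM, and so were their macrophage sums leaving aside GFP-positive 3, at 1437, 1125 and 949 CPM. The part of other cells in these levels was not tested.

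**Figure D4:**
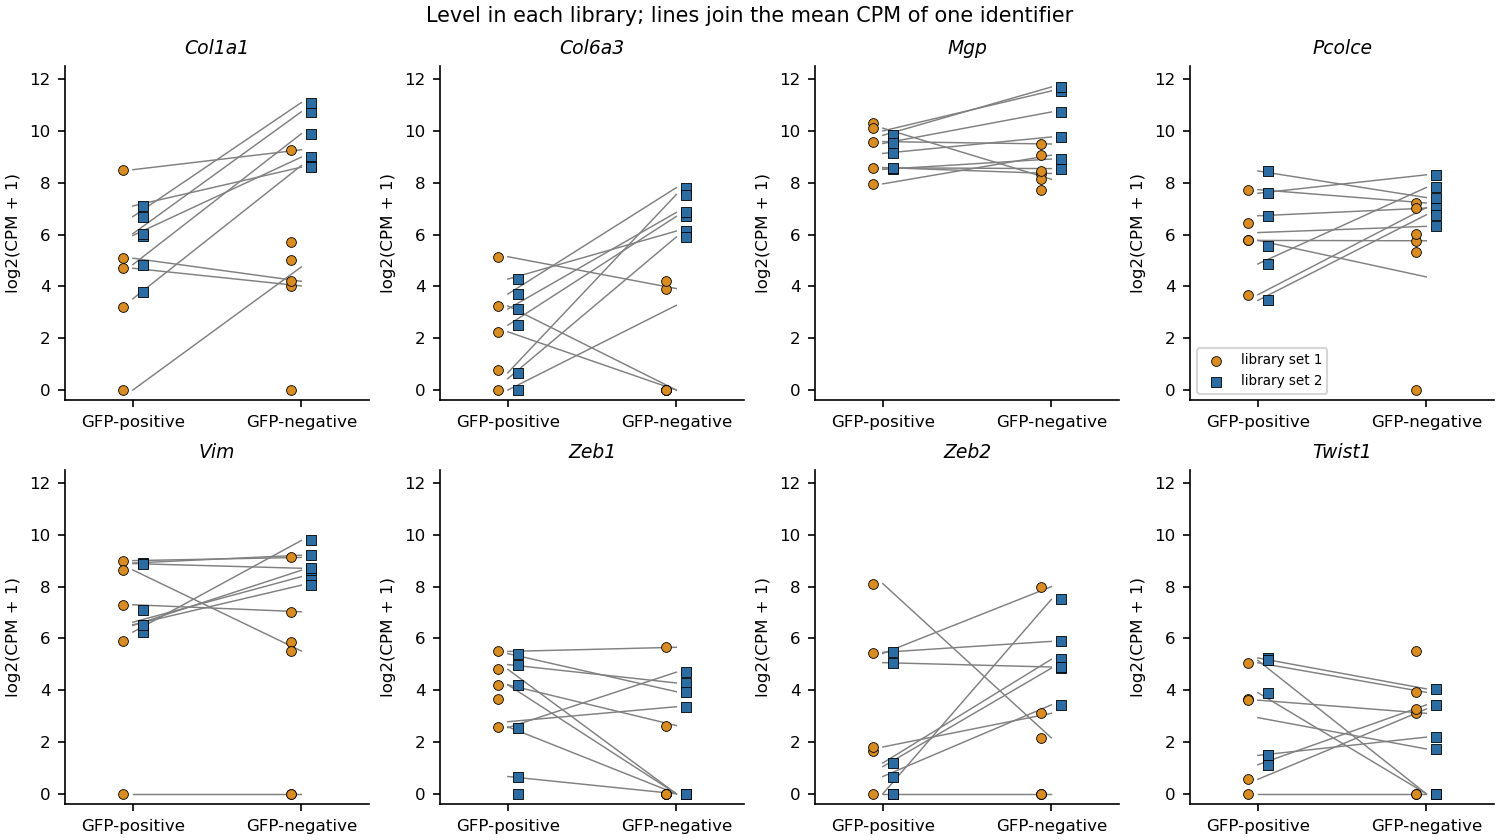
Levels of 8 members in each library as log2(CPM + 1), GFP-positive left and GFP-negative right, with grey lines joining the mean CPM of each identifier. In set 2 (squares) all 6 identifiers have less Col1a1 and Col6a3 in the GFP-positive library. Zeb1 points at 0 include shallow GFP-negative libraries, where a count of 0 allows a level like the GFP-positive median.

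Counts by identifier over the series used the mean of its libraries in each population. Col1a2 and Col5a1 were lower in GFP-positive cells in 9 of 10 identifiers and Col1a1 in 8. The identity sum was lower in 9 of 10, the mesenchymal sum in 6 and the sum of the 5 mesenchymal transcription factors in 5. The share over all genes was not counted.

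In library set 1 no gene was called by edgeR (0 of 5256, 0%; 284, or 5.4%, at an unadjusted p under 0.05), and DESeq2 called 11. Only 8 members were kept by the filter, 5 of them with negative log2 fold changes, and their median was -0.07, beside 0.05 for all genes. No member had ranges that stood apart, beside 0.125% of genes lower and 0.177% higher. Col1a1 had 363, 8.20, 33.1, 0 and 25.0 CPM in GFP-positive libraries, against 0, 24.6 and 619 CPM in GFP-negative libraries (-0.68 ± 1.34, 95% interval -3.70 to 2.34, adjusted p = 0.969). The high library of each population, GFP-positive 1 and GFP-negative 1, carries the same identifier, 3034. Col1a2 (-0.12 ± 1.24) and Col3a1 (-0.10 ± 1.12) likewise spanned wide intervals. Without GFP-negative 1 the 3 values were 2.09, 2.09 and 1.61, and without GFP-positive 1 Col1a2 was -2.35 and Col3a1 -1.86, none called. Without the filter Col1a2 was 0.022 and Col3a1 0.035, so their sign is not settled. Vim had 511, 58.1, 398, 0 and 156 CPM in GFP-positive libraries and 0, 50.9 and 558 CPM in GFP-negative libraries (0.65 ± 1.05, adjusted p = 0.969).

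Whether the population difference itself differed between sets was tested as an interaction over 8698 genes. None was called (0%; 585 genes, 6.73%, at an unadjusted p under 0.05). Of the 30 members tested, 28 had a negative interaction, beside 51.2% of all genes tested. A negative value means a lower GFP-positive level in set 2 than in set 1 relative to GFP-negative. At an unadjusted p under 0.05 stood 10 of the 30. Col6a3 (-5.61 ± 1.42) and Col8a1 (-3.96 ± 1.04) had the smallest adjusted p, 0.359. All 14 macrophage markers tested had a negative interaction too (median -5.31). The filter can keep a gene through 1 group of libraries alone, so these signs describe only the genes it kept. No member and no macrophage marker was called. A difference between the sets was therefore not established for any member, and the sets' fold changes stand side by side. 1 GFP-positive library of identifier 61-1 is in set 1 while its GFP-negative library is in set 2.

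The levels of collagen genes followed each other across libraries of at least 100000 counts, on log2(CPM + 1). Among 10 GFP-positive libraries, Col1a1 and Col1a2 had r = 0.935 (permutation p = 0.00014, adjusted 0.000552 over 12 relations; rho = 0.952, permutation p = 0.00011), and r = 0.895 without the 2 libraries farthest from the Col1a1 median. Within the 6 of set 2, r was 0.977 (exact permutation p = 0.00139, adjusted 0.00556 over 4). Col1a1 and Col3a1 had r = 0.862 (permutation p = 0.00098, adjusted 0.00196; rho = 0.782, permutation p = 0.0106) and 0.729 without those 2, but 0.732 within set 2 (exact permutation p = 0.0944). The GFP-negative libraries fell into separate clusters, 3 of set 1 at most 31.8 CPM of Col1a1 and 6 others at 406 CPM or more. Within those 6, Col1a1 had r = 0.883 with Col1a2 (exact permutation p = 0.0306, adjusted 0.0407) and 0.893 with Col3a1 (exact permutation p = 0.0292, adjusted 0.0407), but rho was 0.714 (exact permutation p = 0.136) and 0.771 (exact permutation p = 0.103), both adjusted 0.181. Vim and Zeb2 levels of GFP-positive libraries also fell into separate clusters, so no r is read for their relations with Col1a1 or Lyz2, a macrophage lysozyme gene.

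**Figure D5:**
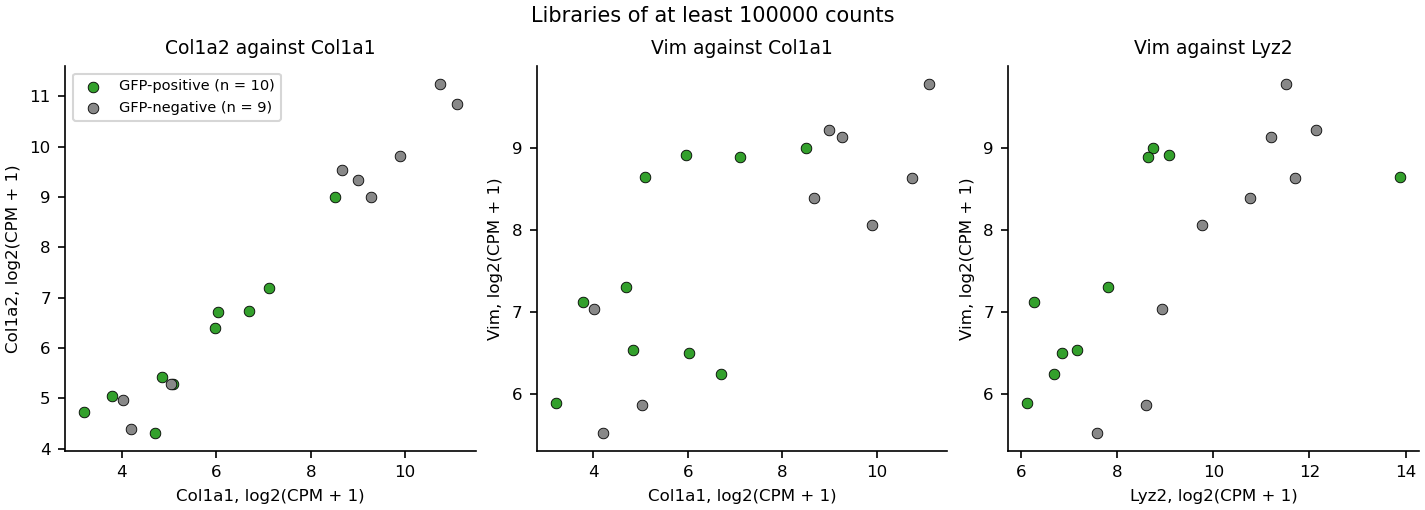
Col1a2 against Col1a1, Vim against Col1a1 and Vim against Lyz2 in libraries of at least 100000 counts, as log2(CPM + 1). Points are libraries, green for GFP-positive (n = 10) and grey for GFP-negative (n = 9). Col1a1 and Col1a2 rise together in both populations, while 4 GFP-positive libraries hold high Vim over a range of Col1a1.

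Of 24 collagen-processing genes 13 were tested in set 2. Negative fold changes were seen for 12 (median -1.06), 8 stood at an unadjusted p under 0.05 and 1 was called lower. That gene was Lox, the oxidase that cross-links collagen (-3.73 ± 0.63, adjusted p = 0.00107). Over all 6952 genes tested, 43.9% had negative fold changes (median 0.07), 6.88% stood at an unadjusted p under 0.05 and 1.24% were called lower. Of 12 further genes of the mesenchymal transition, 6 were tested and 2 were called lower (median -0.96), beside the same 1.24%. They were the gelatinase Mmp2 (-3.43 ± 0.67, adjusted p = 0.00686) and fibronectin, Fn1 (-0.97 ± 0.23, adjusted p = 0.0240). The filter can keep a gene through 1 population alone, so these values describe only the genes it kept.

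Macrophage markers were lower in GFP-positive cells of set 2 too. Of 14 macrophage markers 11 were tested and 10 were called lower (median -3.71), beside 1.24% of all genes tested. Among them were Apoe (-4.12 ± 0.34) and C1qa (-4.57 ± 0.46). Here too the filter can keep a gene through 1 population alone. The sum of all 14 ran from 195 to 1125 CPM in GFP-positive libraries and from 2882 to 7582 CPM in GFP-negative libraries. No marker was at 0 in either population over the series. The 9 smooth muscle and pericyte markers summed to 28.0 to 226 CPM in GFP-positive libraries and 245 to 852 CPM in GFP-negative libraries. Of 5 tested, 0 were called. An edgeR fit with libraries blocked by identifier called Acta2 lower (-1.78, adjusted p = 0.00672) and no other of these markers. The 10 endothelial markers summed to 52.7 to 164 CPM in GFP-positive libraries and 101 to 645 CPM in GFP-negative libraries, with 0 of 3 tested called. The 14 epithelial markers summed to 2816 to 7269 CPM in GFP-positive libraries and 2797 to 4981 CPM in GFP-negative libraries. Of 13 tested, 0 were called. The edgeR fit blocked by identifier called Cldn4 higher (0.84, adjusted p = 0.0215) and no other epithelial marker. Of the neutrophil markers 0 of 3 tested were called and of the mesothelial ones 0 of 1, and no T and NK cell or glial marker was kept by the filter. Total counts also differed in set 2, at 325231 to 3903913 in GFP-positive libraries and 69580 to 1124151 in GFP-negative libraries. The part of other cell types and of depth in the members' differences was not tested.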

How the data were processed

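Bulk RNA-seq gave 23 mouse libraries, made with poly(A) selection and a directional kit per the labels' protocols. The deposited table gives, per gene and library, the authors' expected counts, which are estimates. Salmon 1.3.0 and the mm10 build are named in the submitters' processing notes. The deposited counts were already whole numbers. Which annotation was used is not stated. Salmon shares reads among similar transcripts by a model, so counts of related collagen genes are estimates. Of the 54354 genes, 51528 (94.8%) were in GENCODE M21, used for coordinates and exon lengths.

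Groups came from the labelled GFP status. CPM is counts over the library total. Each comparison was fitted in edgeR (version 4.0.16, under R 4.3.3; scaling by TMM, low counts removed by filterByExpr, robust quasi-likelihood test, no covariate; Benjamini-Hochberg over all genes tested, threshold 0.05), for all libraries, for each library set and for their interaction. SE is that of the log2 fold change. Medians over genes kept by the filter describe those genes only, since it can keep a gene through 1 population. Alternatives were DESeq2 1.42.0, other size factors, no filter (at least 10 counts), no libraries under 100000 counts, blocks by identifier or title number, summed identifiers, library set as a covariate, and each library left out. The members and lists were chosen with earlier results of these data known. Values are given in full for Col1a1, Col1a2, Col3a1, Vim, Zeb1 and Zeb2 and for up to 12 members called within a set by smallest p, and the others by role; Mgp, Pcolce and Twist1 were added to these after their values were seen. The test code was tested on simulated data.

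The labels tie no library to an animal of its own. The p-values therefore describe only how far libraries differ from each other, and that spread may be technical. Title numbers shared an identifier in 2 of 11 cases, 1 of them through the joined identifier of GFP-positive 4, GFP-negative 4 and GFP-negative 5. That joined identifier also entered the pairs below and the blocks by identifier. Libraries of 1 identifier had correlated deviations from their group means in 5 of 12 pairs (r over 0.1, median 0.0805), against 17 of 120 pairs of other identifiers (median -0.01). Such correlation was more frequent within an identifier, although not in every pair. Neither number was taken to pair the libraries in the main fit, because the labels name no paired analysis. Any pairing by identifier is ignored there, and the block by identifier is an alternative. Depth ran from 25458 to 4238877 counts; floors of 3 counts per library cover counting error only.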

Additional observations from a re-analysis of the deposited data

Results flagged for a closer look

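In each population of a library set, a highest or lowest library was taken as standing apart where its gap to the next one, divided by the range, passed Dixon's 95% value. Of 84 groups of values 32 held such a library (38.1%). Dixon's value assumes normally distributed values, while these are CPM of often low counts, and the groups share libraries. The share is therefore not set against a chance rate. Of the 32, 11 fell on GFP-positive 1 and 16 on GFP-negative 1, both of identifier 3034.

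GFP-positive 1 stood far above the other 4 GFP-positive libraries of set 1 for Col1a1 (362.8 CPM, others at most 33.06), Col1a2 (512.2), Col3a1 (595.7), Col5a1 (33.03), Col5a2 (149.8), Col6a3 (34.44), Col12a1 (63.22), Lum (83.51), Bgn (309.3), Sfrp4 (27.37) and the identity sum (4128 CPM, others at most 1497). GFP-negative 1 stood far above the other 5 GFP-negative libraries of that set for Col1a1 (619 CPM, others at most 51.97), Col1a2 (513.1), Col3a1 (586.1), Col5a1 (75.32), Col5a2 (169.5), Col12a1 (49.43), Col14a1 (37.66), Col15a1 (30.6), Lum (148.3), Bgn (383.7) and Sfrp4 (37.66 CPM, others 0). It was also highest for Vim (557.8 CPM), Zeb1 (49.43), Zeb2 (254.2), the identity sum (4684 CPM) and the mesenchymal sum (875.6 CPM).

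In GFP-positive 3, the library with the macrophage marker sum of 36754 CPM, Zeb2 was 275.8 CPM, with the other 4 at most 41.76, and Col14a1 was 104.8 CPM, with the others at most 14.15. In GFP-positive 11, Col12a1 was 19.04 CPM, with the other 5 at most 3.075. In GFP-negative 10, Zeb2 was 180.7 CPM, with the other 5 at most 58.07. In GFP-negative 3, Twist1 was 44.48 CPM, with the other 5 at most 14.12.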

How the results depend on the processing

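Of the 12 members called lower in set 2, Bgn, Col12a1, Col15a1, Col1a1, Col5a1, Col6a3, Lum and Sfrp4 were called in 18 of 18 settings run, Col14a1 and Col1a2 in 17, Col5a2 in 9 and Col8a1 in 7. Genes called in set 2 numbered 288 with DESeq2 (15 members), 234 without the filter and 140 with the replicate block by identifier, beside 89; leaving out 1 library gave 65 to 118 genes and 9 to 12 members. That block gave 11 members, losing Col1a2, Col5a2 and Col8a1 and gaining Aebp1 and Mgp (-1.01, adjusted p = 0.00652). Over all libraries 61 genes and 6 members were called with DESeq2, 2 genes with the block by identifier and 0 with the block by title number; leaving out 1 library gave 0 to 16 genes and 0 members. A setting chosen after seeing the data, the block by identifier without GFP-positive 3, called 89 genes and 5 members (Aebp1, Col1a1, Col1a2, Col5a1 and Lum). In set 1, 11 genes were called with DESeq2 and 0 to 6 with 1 library left out; the interaction called 2 genes without the filter. The causes were not tested.

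Uncalled values changed sign in set 1. Pcolce was 0.048 with RLE size factors, 0.14 with DESeq2 and 0.10 without the filter, where Col1a2 was 0.022 and Col3a1 0.035. With the identifier block Col3a1 was 0.022 and Col8a1 -0.22, and in set 2 Zeb1 was -0.37. With 1 library left out, where tested, set 1 values ran from -0.90 to 2.09 for Col1a1, -2.35 to 2.09 for Col1a2, -1.86 to 1.61 for Col3a1, -2.18 to 1.26 for Dcn and -0.77 to 0.27 for Pcolce, and Zeb1 in set 2 from -0.59 to 0.50. The relations of Vim are not read, since the libraries fall into clusters; including the shallow library moved Col1a1 with Vim to r = 0.835 (adjusted permutation p = 0.00588, beside 0.0971) and Lyz2 with Vim to r = 0.522 (adjusted permutation p = 0.101, beside 0.00808).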
